A study of Homo sapiens with 12 samples.

Results

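The nuclear genes for subunits of the mitochondrial respiratory chain and ATP synthase were compared between C4-2 cells with ALKBH5 overexpression (oeALKBH5) and C4-2 cells with an empty vector (NC). The members are the protein-coding genes of the expression table whose symbols begin with NDUFA, NDUFB, NDUFC, NDUFS, NDUFV, UQCR, COX4 to COX8 or ATP5, or are SDHA, SDHB, SDHC or SDHD, without the assembly factors NDUFAF and SDHAF. This gave 89 of the 20308 genes in the table, with 37 in complex I, 4 in complex II, 8 in complex III, 19 in complex IV, 19 in complex V and 2 readthrough transcripts that join a subunit gene to its neighbour. The rule itself uses no measured value, but the set was proposed with earlier results of these data known. NDUFA4 and NDUFA4L2 were named for complex I, and were placed here with complex IV, where the RefSeq symbols COXFA4 and COXFA4L2 put them.

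C4-2 is an established human cell line that models castration-resistant prostate cancer, and ALKBH5 is an enzyme that removes the methyl group of N6-methyladenosine (m6A) from RNA. Each genotype had 3 replicates with an input library of rRNA-depleted RNA and an m6A immunoprecipitation library, 12 libraries in all, and no other treatment. The 6 input libraries are used here, 3 oeALKBH5 and 3 NC. The labels do not say whether replicates were separate cultures or whether each genotype was a single clone, so the p-values cover no more than the scatter among libraries, which may be technical.

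The respiratory chain passes electrons from NADH through complex I, or from succinate through complex II, to ubiquinone, then through complex III to cytochrome c and through complex IV to oxygen. Complexes I, III and IV pump protons across the inner mitochondrial membrane, and complex V, the ATP synthase, uses the returning protons to make ATP. Except for complex II, each complex combines subunits from nuclear genes with a few made from mitochondrial DNA. Prostate luminal cells are known for an unusual metabolism in which citrate is secreted, and prostate tumours for a return to citrate oxidation.

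Levels are FPKM, that is, sequenced fragments per length of transcript and per fragments mapped, and sums over all genes were between 511333 and 524905 FPKM per library. Read counts were not used here, so absolute depth is unknown. Low genes with equal fragment numbers in a pair of libraries share an FPKM ratio. By the most frequent such ratio under 1 FPKM, the depth relative to NC replicate 1 was 1.07, 0.783 and 0.83 in oeALKBH5 replicates 1, 2 and 3, and 1.00, 1.13 and 1.00 in NC replicates 1, 2 and 3, and the part of this difference in the results was not tested. ALKBH5 itself had 80.3, 74.3 and 72.5 FPKM in oeALKBH5 cells, against 64.9, 61.1 and 58.2 FPKM in NC cells. These groups did not overlap, but the log2 fold change of 0.30 ± 0.10 (SE) did not pass the threshold (adjusted p = 0.114). All 10 markers of prostate luminal epithelium averaged at least 55.6 FPKM, led by KLK3 at 973 FPKM. The summed level of 8 immune markers was 3.49 to 7.85 FPKM in oeALKBH5 libraries and 0.521 to 2.80 FPKM in NC libraries, with MS4A1 and NKG7 at 0 in all 6. The summed level of 7 fibroblast markers was 4.08 to 28.1 FPKM in oeALKBH5 libraries and 4.20 to 13.1 FPKM in NC libraries, with DCN and LUM at 0 in all 6. The part of these levels in the results was not tested. Endothelial markers summed to at most 0.551 FPKM in oeALKBH5 libraries and 1.12 FPKM in NC libraries.

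The members were mostly abundant transcripts, and their log2 fold changes between oeALKBH5 and NC cells ran from -0.68 in NDUFA2 and COX7B2 to 0.55 in COX7B. All members that passed the test belong to complexes I and V, which hold most of the members. Of the 89 members, 83 had a mean of at least 0.5 FPKM and were tested. In oeALKBH5 cells 7 of them fell (NDUFA2, NDUFS5, NDUFB2, NDUFA12 and NDUFAB1 of complex I, ATP5MC3 and ATP5F1A of complex V) and 1 rose (NDUFB4 of complex I), as tested with limma on log2(FPKM + 1) at an adjusted p under 0.05 over all 12757 tested genes. That is 9.64% of the members, against 5.45% of all tested genes, of which 2.43% fell and 3.02% rose. Subunit genes lie high in the expression range, where more genes were called. Among the 2685 tested genes at or above 38.0 FPKM, the mean of the lowest called member, 13.3% were called, against 8 of 71 members (11.3%), so the share of members called was near that of other genes at their level. This cutoff was set by the calls, so it kept every called member and left out only members not called. In that range 7.52% of genes fell and 5.74% rose.

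The direction of the differences was less even. The log2 fold change, oeALKBH5 minus NC, was below 0 in 60 of 83 members (72.3%), against 47.7% of all tested genes, and in 73.2% of members at or above 38.0 FPKM, against 56.6% of genes there. In 19 members (22.9%) every oeALKBH5 library was below every NC library, against 13.0% of all tested genes. At or above 38.0 FPKM that share was 25.4% of members and 23.6% of genes, so full separation was about as common as elsewhere at that level. Counting both directions, 21 members (25.3%) had groups that did not overlap, against 28.1% of all tested genes, and at or above 38.0 FPKM 28.2% of members did, against 40.1% of genes. Of the 8 calls, only that of NDUFB2 held with each library left out in turn. Such fits also have fewer libraries, so a lost call need not point to the library left out. Without oeALKBH5 replicate 1, 2 or 3 the members called numbered 4, 2 and 1, and without NC replicate 1, 2 or 3 they numbered 4, 1 and 1, with NDUFB2 called each time. Without the intensity trend of the fit no member was called and 11 had an unadjusted p under 0.05, and with no filter on low values or with quantile normalization 5 were called.

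By complex, the median log2 fold change of the tested members was -0.16 in complex I, -0.05 in complex II, -0.06 in complex III (0.0019 after quantile normalization), -0.05 in complex IV and -0.16 in complex V (-0.09 after quantile normalization). Over all members it was -0.14 (-0.06 after quantile normalization), and over all tested genes 0.02. Values below 0 were found in 29 of 37 tested members of complex I, 3 of 4 of complex II, 7 of 8 of complex III, 8 of 14 of complex IV and 12 of 19 of complex V. The share of tested members called with limma was 16.2% in complex I and 10.5% in complex V. Over all tested genes it was 5.45%, and 13.3% over those at or above 38.0 FPKM. The shares of both complexes also count members below that level, down to NDUFS7 at 19.9 FPKM and ATP5MGL at 0.559 FPKM. Complexes II, III and IV had no called member with limma, and 0, 0 and 1 member at an unadjusted p under 0.05. Whether the complexes differ from each other was not tested. In bulk RNA, fewer cells that make a transcript and less of it per cell cannot be told apart.

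**Figure D1:**
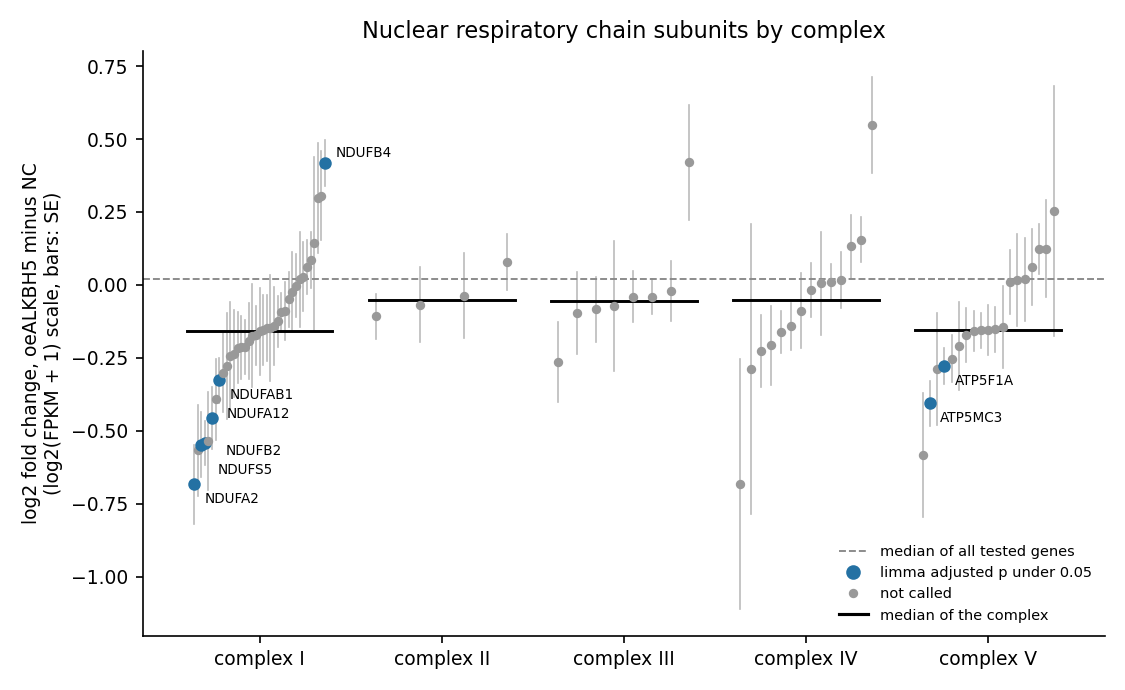
Log2 fold change on log2(FPKM + 1), oeALKBH5 minus NC, of each tested member, 1 point per gene, grouped by complex, with SE bars, the median of each complex as a thick line, the median of all tested genes (0.02) as a dashed line, and called members named. Complexes I and V have medians of -0.16 and hold all 8 called members, 16.2% and 10.5% of their tested members. Over all tested genes 5.45% were called, and 13.3% of those at or above 38.0 FPKM, a level that not all members of these complexes reach. Complexes II, III and IV have medians of -0.05, -0.06 and -0.05, and that of complex III changes sign to 0.0019 after quantile normalization.

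Summed over the members, the transcripts of complex I reached 3253, 3195 and 3350.0 FPKM in oeALKBH5 replicates 1, 2 and 3, against 3504, 3606 and 3540.2 FPKM in NC replicates 1, 2 and 3. All oeALKBH5 sums lay below all NC sums, and the mean sum was lower in oeALKBH5 cells (-8.01%). Complex V summed to 4535, 4166 and 4397 FPKM in oeALKBH5 cells, against 4735, 4979 and 4929 FPKM in NC cells. Here too the groups did not overlap, and the mean difference was -10.5%. For complex II the sums were 365, 359 and 332 FPKM in oeALKBH5 cells and 353, 362 and 369.7 FPKM in NC cells. Complex III summed to 1214, 1318 and 1279 FPKM in oeALKBH5 cells and 1269, 1312 and 1353 FPKM in NC cells. Complex IV summed to 2971, 3002 and 2968 FPKM in oeALKBH5 cells and 2892, 3082 and 3142 FPKM in NC cells. In complexes II, III and IV the groups overlapped, with mean differences of -2.59%, -3.12% and -1.93%. With 3 libraries against 3, an exact permutation test cannot give a p under 0.1. All members together made up 2.41%, 2.35% and 2.40% of the FPKM sum of oeALKBH5 replicates 1, 2 and 3, against 2.48%, 2.54% and 2.57% of that of NC replicates 1, 2 and 3.

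**Figure D2:**
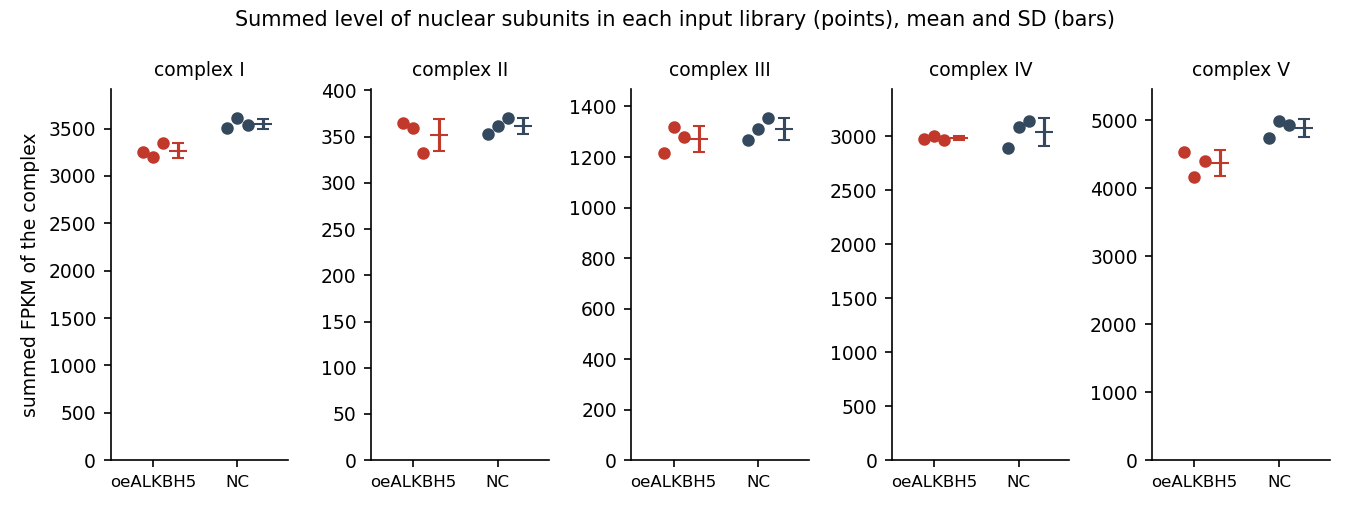
Summed FPKM of the members of each complex in each input library, 1 point per library with the mean and SD of 3, oeALKBH5 left of NC. The oeALKBH5 sums of complex I (3195 to 3350.0 FPKM) and complex V (4166 to 4535 FPKM) lie below the NC sums (3504 to 3606 and 4735 to 4979 FPKM), and the groups of complexes II, III and IV overlap.

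Complex I, the NADH dehydrogenase, has a matrix arm with an NADH-oxidising N module and a ubiquinone-reducing Q module, and a membrane arm with a proximal and a distal part. In the N module 2 of 10 members fell. NDUFA2 (ENSG00000131495, chromosome 5), an accessory subunit with a thioredoxin-like fold, had 31.5, 31.0 and 24.6 FPKM in oeALKBH5 replicates 1, 2 and 3, against 48.0, 43.4 and 49.7 FPKM in NC replicates 1, 2 and 3. Every oeALKBH5 library was below every NC library, and the log2 fold change was -0.68 ± 0.13 (SE, adjusted p = 0.0248), the largest fall among the called members. NDUFA12 (ENSG00000184752, chromosome 12), which takes the place of the assembly factor NDUFAF2 late in assembly, had 38.3, 43.8 and 40.2 FPKM in oeALKBH5 cells, against 53.5, 57.2 and 58.3 FPKM in NC cells. Its groups did not overlap either, with a log2 fold change of -0.46 ± 0.11 (SE, adjusted p = 0.0442). NDUFA2 was no longer called without oeALKBH5 replicate 3 or without NC replicate 1, 2 or 3, and NDUFA12 without any 1 of the 6 libraries, with adjusted p up to 0.109 and 0.154, both without NC replicate 3. NDUFS6, a zinc-binding subunit, had 26.2, 18.9 and 20.6 FPKM in oeALKBH5 cells, against 29.2, 37.6 and 29.7 FPKM in NC cells, and did not pass the threshold (adjusted p = 0.105).

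None of the catalytic subunits of the N module was called. NDUFV1, which binds NADH and the flavin cofactor, averaged 91.5 ± 6.27 FPKM in oeALKBH5 cells and 97.5 ± 8.49 FPKM in NC cells (SD, n = 3 each). NDUFV2, its iron-sulfur partner, averaged 268 ± 4.80 FPKM in oeALKBH5 cells and 286 ± 15.2 FPKM in NC cells. All 3 oeALKBH5 values of NDUFV2 lay below those of NC, but the log2 fold change of -0.09 (95% interval -0.24 to 0.06) did not pass the threshold and was 0.05 after quantile normalization. NDUFS1, the largest iron-sulfur subunit, averaged 60.5 ± 1.61 FPKM in oeALKBH5 cells and 60.8 ± 6.48 FPKM in NC cells, with a 95% interval of the log2 fold change of -0.25 to 0.24. NDUFA7, which had the highest log2 fold change of the module at 0.31, had 43.3, 56.9 and 46.7 FPKM in oeALKBH5 cells, against 33.1, 40.6 and 44.8 FPKM in NC cells, with overlapping groups.

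None of the 6 members of the Q module was called with limma, and 1 had an unadjusted p under 0.05. All 6 had a log2 fold change below 0. So did 47.7% of all tested genes and 56.6% of those at or above 38.0 FPKM, a level that not all 6 reach. NDUFA9, an accessory subunit that binds a nicotinamide nucleotide, had 34.1, 50.1 and 44.0 FPKM in oeALKBH5 cells, against 58.0, 60.2 and 71.6 FPKM in NC cells. These groups did not overlap, and the log2 fold change of -0.57 ± 0.16 (SE) lay just outside the threshold (adjusted p = 0.0746). The core subunits NDUFS3, NDUFS7 and NDUFS8 overlapped between the groups. NDUFS3 averaged 110.3 ± 9.09 FPKM in oeALKBH5 cells and 114 ± 7.57 FPKM in NC cells (SD, n = 3 each). The iron-sulfur subunit NDUFS7, the lowest member of complex I, averaged 18.8 ± 3.62 FPKM in oeALKBH5 cells and 20.9 ± 3.19 FPKM in NC cells, and the iron-sulfur subunit NDUFS8 averaged 52.1 ± 5.94 FPKM in oeALKBH5 cells and 62.0 ± 11.5 FPKM in NC cells.

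In the membrane arm 3 members fell and 1 rose, while 2.43% of all tested genes fell and 3.02% rose. NDUFS5 (ENSG00000168653, chromosome 1), an accessory subunit of the proximal part on the intermembrane side, had 94.7, 116 and 117 FPKM in oeALKBH5 cells, against 142, 167 and 171 FPKM in NC cells. Its groups did not overlap, with a log2 fold change of -0.55 ± 0.11 (SE, adjusted p = 0.0283). It was the 1 called member among 9 of the proximal part, where NDUFC1 had the highest log2 fold change at 0.30 (adjusted p = 0.39). NDUFB2 (ENSG00000090266, chromosome 7), a small accessory subunit of the distal part, had 102, 107 and 109 FPKM in oeALKBH5 replicates 1, 2 and 3, against 149.6, 158 and 156 FPKM in NC replicates 1, 2 and 3. Values within each group were close, and NDUFB2 fell by 31.5%, with a log2 fold change of -0.54 ± 0.08 (SE) and the smallest adjusted p of the members, 0.00613. NDUFAB1 (ENSG00000004779, chromosome 16), the mitochondrial acyl carrier protein, also serves in mitochondrial fatty acid synthesis and was counted with the distal part. It had 118, 121 and 122 FPKM in oeALKBH5 cells, against 155, 142 and 156 FPKM in NC cells, with a log2 fold change of -0.33 ± 0.08 (SE, adjusted p = 0.0466) and no overlap.

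NDUFB4 (ENSG00000065518, chromosome 3), an accessory subunit of the distal part, was the only member that rose. It had 223, 254 and 237 FPKM in oeALKBH5 replicates 1, 2 and 3, against 188, 175 and 171 FPKM in NC replicates 1, 2 and 3. All oeALKBH5 libraries were above all NC libraries, with a log2 fold change of 0.42 ± 0.08 (SE, adjusted p = 0.02). NDUFB2 stayed called whichever library was left out (highest adjusted p = 0.0404, without NC replicate 3). NDUFB4 was not called without oeALKBH5 replicate 2 or 3 or NC replicate 2 or 3, NDUFS5 was not called without any 1 library except NC replicate 1, and NDUFAB1 was not called without any 1 of the 6. Without NC replicate 3 their adjusted p were 0.0917, 0.12 and 0.163. RefSeq lists 12 pseudogenes named after NDUFB4, 7 after NDUFS5, 1 each after NDUFB2, NDUFA12 and NDUFAB1, and none after NDUFA2, and an antisense gene, NDUFB2-AS1, beside NDUFB2. How the counting treated copies and strand is not given in the sources used here, so the values of genes with such copies are uncertain.

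**Figure D3:**
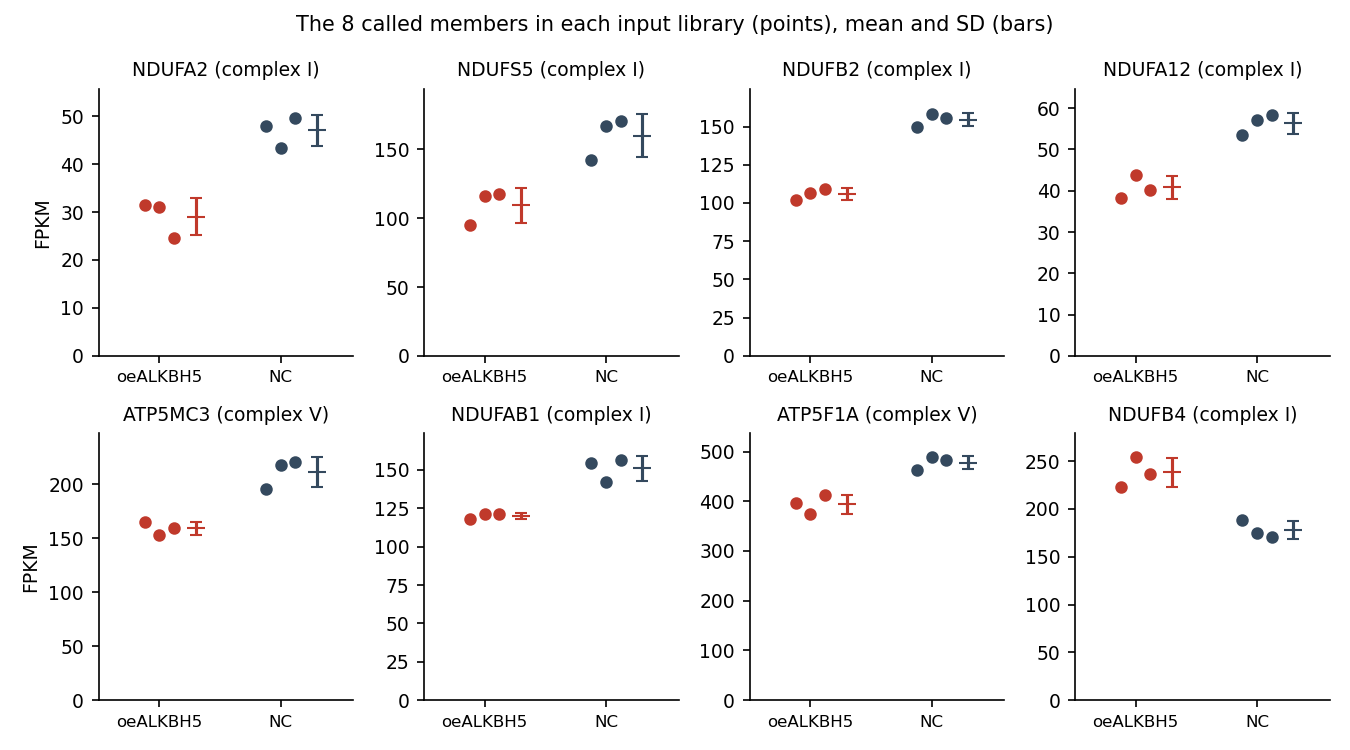
FPKM of the 8 called members in each input library, 1 point per library with the mean and SD of 3, oeALKBH5 left of NC. In NDUFB4 the 3 oeALKBH5 libraries (223 to 254 FPKM) lie above the NC libraries (171 to 188 FPKM), and in the other members they lie below, as in NDUFB2 (102 to 109 against 149.6 to 158 FPKM).

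The sequences upstream of 4 called complex I genes with a single listed start are shown, those of NDUFB4, which rose, and of NDUFB2, NDUFA12 and NDUFA2, which fell. Each is the 180 bases before the RefSeq transcript start on GRCh38.p14, 5′ to 3′ on the strand of the gene: NDUFB4 at chr3:120596156-120596335, plus strand, NDUFB2 at chr7:140696528-140696707, plus strand, NDUFA12 at chr12:95003698-95003877, minus strand, and NDUFA2 at chr5:140647631-140647810, minus strand. Capitals mark matches on either strand to any of the motifs searched.
NDUFB4: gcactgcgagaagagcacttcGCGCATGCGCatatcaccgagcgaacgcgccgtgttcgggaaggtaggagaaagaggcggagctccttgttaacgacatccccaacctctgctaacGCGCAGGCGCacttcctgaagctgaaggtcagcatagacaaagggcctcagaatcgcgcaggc
NDUFB2: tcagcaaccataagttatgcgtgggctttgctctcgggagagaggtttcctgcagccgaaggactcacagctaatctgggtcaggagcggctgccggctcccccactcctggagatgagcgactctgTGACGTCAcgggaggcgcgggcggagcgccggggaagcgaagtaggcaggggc
NDUFA12: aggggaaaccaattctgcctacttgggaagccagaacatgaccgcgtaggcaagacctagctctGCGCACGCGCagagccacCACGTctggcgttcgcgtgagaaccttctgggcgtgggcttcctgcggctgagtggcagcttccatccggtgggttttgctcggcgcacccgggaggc
NDUFA2: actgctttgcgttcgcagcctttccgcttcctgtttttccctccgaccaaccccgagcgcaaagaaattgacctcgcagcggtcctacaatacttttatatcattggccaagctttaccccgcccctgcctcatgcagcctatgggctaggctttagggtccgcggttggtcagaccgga

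The motifs searched on both strands were GCGCA and GCGC with any 1 base between them for NRF1, CCGGAAG for ETS factors including GABP, AAGATGG for YY1, ACGTG for hypoxia-inducible factors and TGACGTCA for the cyclic AMP response element (CRE). NRF1, GABP and YY1 are known as activators of many respiratory genes. The upstream sequence of NDUFB4 holds 2 NRF1 matches, from -159 to -150 and from -63 to -54 relative to the start. That of NDUFB2 holds a CRE match from -53 to -46, and that of NDUFA12 holds an NRF1 match from -116 to -107 with an ACGTG match from -98 to -94. In NDUFA2 none of the letters searched occur in these 180 bases, nor do they in NDUFAB1, the other called member with a single listed start. RefSeq windows from 250 bases before to 50 after the start were found for 73 of the 89 members. In these longer windows NDUFB4 has 3 NRF1 matches, and NDUFA12 also has a YY1 match. The NRF1 letters were in 17 of 73 members (19.5% of 87 member windows), against 5.78% of 35116 windows of all genes. The ETS letters were in 28.8% of members (25.3% of their windows, against 10.3% of all) and the YY1 letters in 24.7% (21.8%, against 5.84%). ACGTG was in 24.7% of members (23.0% of their windows, against 21.4% of all) and the CRE in 5 of 73 (5.75%, against 1.85%). A match describes the sequence and is not a site of binding, and among the called members both directions of change had NRF1 letters. Whether these motifs bear on the direction of change was not tested.

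Complex II, the succinate dehydrogenase, is made only from nuclear genes, and none of its 4 members was called. SDHA, the flavoprotein, had 75.9, 53.7 and 57.1 FPKM in oeALKBH5 cells, against 56.7, 68.2 and 65.1 FPKM in NC cells. SDHB, the iron-sulfur subunit, had 74.4, 83.8 and 63.6 FPKM in oeALKBH5 cells, against 72.8, 71.8 and 87.5 FPKM in NC cells. Both overlapped between the groups. Of the membrane anchors, SDHC had 87.5, 99.9 and 88.2 FPKM in oeALKBH5 cells, against 82.4, 92.9 and 85.5 FPKM in NC cells, and SDHD had 127, 122 and 123 FPKM in oeALKBH5 cells, against 141, 129 and 132 FPKM in NC cells. SDHD alone of the 4 did not overlap, with a log2 fold change of -0.11 (95% interval -0.28 to 0.07, adjusted p = 0.451).

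Complex III, the cytochrome bc1 complex, also had no called member. In none of its 8 members were the groups apart, against 28.1% of all tested genes with groups apart. CYC1, the nuclear gene for cytochrome c1 of this complex, falls outside the naming rule and was listed with the electron carriers. It averaged 47.4 ± 6.03 FPKM in oeALKBH5 cells and 48.4 ± 3.49 FPKM in NC cells (SD), with overlapping groups. UQCRC1 and UQCRC2, the large core proteins, averaged 115 ± 25.9 and 157 ± 18.0 FPKM in oeALKBH5 cells, against 121 ± 5.06 and 159 ± 12.6 FPKM in NC cells (SD, n = 3 each). UQCRFS1, the Rieske iron-sulfur protein, averaged 110.2 ± 8.41 FPKM in oeALKBH5 cells and 113 ± 3.33 FPKM in NC cells, with a 95% interval of the log2 fold change of -0.24 to 0.16. The most abundant member was UQCRH, the hinge protein beside cytochrome c1, with 409.6, 398 and 420.1 FPKM in oeALKBH5 cells and 427, 435 and 401 FPKM in NC cells. The small subunits at the ends of the range were UQCR10, with 75.1, 88.5 and 101 FPKM in oeALKBH5 cells and 102, 93.8 and 122 FPKM in NC cells, and UQCR11, with 42.9, 71.6 and 46.7 FPKM in oeALKBH5 cells and 34.0, 38.2 and 45.3 FPKM in NC cells. Their log2 fold changes were -0.27 and 0.42, and the wide spread of UQCR11 came with an SE of 0.20 and an adjusted p of 0.254. UQCRHL, a near copy of UQCRH, was not analysed here.

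Complex IV, cytochrome c oxidase, has several subunits with a general form and a form known from heart, skeletal muscle, lung, testis or hypoxic cells, and C4-2 cells carried the general forms. COX4I1 had 386, 376 and 379 FPKM in oeALKBH5 cells and 385, 445 and 451 FPKM in NC cells, while COX4I2, the lung and hypoxia form, was listed at 0 in all 6 libraries. COX6A1 averaged 301 ± 40.6 FPKM in oeALKBH5 cells and 296 ± 11.4 FPKM in NC cells (SD, n = 3 each), and COX6A2, the heart and muscle form, was at 0 in all 6. COX6B1 averaged 212 ± 15.2 FPKM in oeALKBH5 cells and 234 ± 12.4 FPKM in NC cells without overlap, and COX6B2, the testis form, was at 0 in all 6. COX8A averaged 218 ± 11.6 FPKM in oeALKBH5 cells and 200.3 ± 30.3 FPKM in NC cells, and COX8C, known from testis, was at 0 in all 6. COX7A2 averaged 275 ± 54.7 FPKM in oeALKBH5 cells and 314 ± 23.9 FPKM in NC cells, and COX7A1, the heart and muscle form, was at 0 in all 6. COX7A2L, which links complexes III and IV in supercomplexes, averaged 77.8 ± 18.1 FPKM in oeALKBH5 cells and 76.4 ± 9.17 FPKM in NC cells. Of 5 markers of striated muscle and heart, 3 were also at 0 in all 6 libraries, and the 5 summed to at most 1.84 FPKM in oeALKBH5 libraries and 0.739 FPKM in NC libraries.

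A restricted form was present in 2 sets. COX7B2, known from testis, had 8.83, 2.70 and 11.4 FPKM in oeALKBH5 cells, against 9.42, 15.9 and 9.57 FPKM in NC cells, with overlapping groups, a log2 fold change of -0.68 (-0.79 with a pseudocount of 0.1) and a wide 95% interval of -1.66 to 0.29. Its general form COX7B had 41.9, 47.3 and 48.9 FPKM in oeALKBH5 cells, against 39.1, 25.2 and 30.5 FPKM in NC cells. All oeALKBH5 values of COX7B were above those of NC, and the log2 fold change of 0.55 ± 0.16 (SE) was the highest of the 14 tested members of complex IV but did not pass the threshold (adjusted p = 0.0959). NDUFA4L2, a hypoxia-inducible form of NDUFA4, had 2.62, 0 and 2.64 FPKM in oeALKBH5 cells, against 1.66, 2.08 and 1.93 FPKM in NC cells. NDUFA4 had 66.9, 72.6 and 61.3 FPKM in oeALKBH5 cells, against 65.9, 64.6 and 84.3 FPKM in NC cells, and neither was called. COX5A and COX5B, which have no second form, averaged 169 ± 15.8 and 193 ± 12.3 FPKM in oeALKBH5 cells, against 199 ± 32.1 and 195 ± 19.5 FPKM in NC cells, and COX5A had the lowest log2 fold change of the common subunits at -0.23 (adjusted p = 0.321). COX7C was the most abundant member of the complex, at 584 ± 32.7 FPKM in oeALKBH5 cells and 579.7 ± 22.2 FPKM in NC cells, with a 95% interval of the log2 fold change of -0.13 to 0.15.

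**Figure D4:**
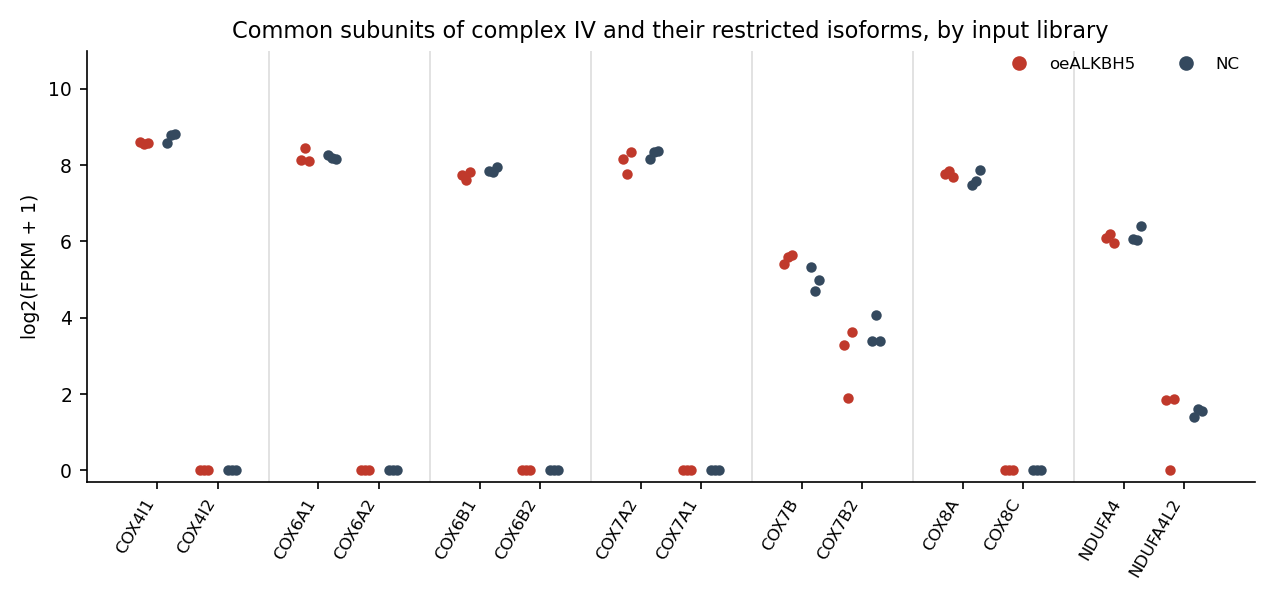
FPKM of the complex IV isoform sets on a log2(FPKM + 1) axis, 1 point per input library, oeALKBH5 left of NC within each gene. The general forms lie between 25.2 and 451 FPKM, and of the restricted forms only COX7B2 (2.70 to 15.9 FPKM) and NDUFA4L2 (0 to 2.64 FPKM) leave 0.

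In complex V, 2 of 19 members fell (10.5%), against 2.43% of all tested genes. Of genes at or above 38.0 FPKM, a level that not all 19 reach, 7.52% fell. ATP5F1A (ENSG00000152234, chromosome 18), the alpha subunit of the catalytic head, had 395.7, 373 and 412 FPKM in oeALKBH5 replicates 1, 2 and 3, against 463, 488 and 482 FPKM in NC replicates 1, 2 and 3. The groups did not overlap, and ATP5F1A fell by 17.6%, with a log2 fold change of -0.28 ± 0.06 (SE, adjusted p = 0.0356). ATP5F1B, the catalytic beta subunit, had 675, 636 and 704 FPKM in oeALKBH5 cells, against 715, 778 and 751 FPKM in NC cells. ATP5F1C, the gamma subunit of the rotating stalk, had 198, 202 and 215 FPKM in oeALKBH5 cells, against 222, 233 and 232 FPKM in NC cells. Both were lower in every oeALKBH5 library, with log2 fold changes of -0.16 each, and did not pass the threshold (adjusted p = 0.166 and 0.215). The delta and epsilon subunits ATP5F1D and ATP5F1E averaged 102 ± 12.1 and 35.2 ± 2.13 FPKM in oeALKBH5 cells, against 101 ± 18.7 and 33.8 ± 4.05 FPKM in NC cells (SD, n = 3 each), with overlapping groups. ATP5F1A was not called without any 1 of the 6 libraries (adjusted p up to 0.133, without NC replicate 3), and RefSeq lists 7 pseudogenes named after it.

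The c ring, the rotor in the membrane, is made from 3 genes that encode the same mature protein, and 1 of these genes was called. ATP5MC3 (ENSG00000154518, chromosome 2) had 165, 153 and 159.6 FPKM in oeALKBH5 cells, against 195, 218 and 221 FPKM in NC cells. It fell by 24.7% with no overlap and a log2 fold change of -0.41 ± 0.08 (SE, adjusted p = 0.023), and was not called without oeALKBH5 replicate 2 or 3 or NC replicate 2 or 3 (adjusted p up to 0.104, without NC replicate 3). ATP5MC1 had 56.8, 43.5 and 28.6 FPKM in oeALKBH5 cells, against 62.2, 64.3 and 61.1 FPKM in NC cells. Its groups did not overlap, but the oeALKBH5 values were spread widely, and the log2 fold change of -0.58 ± 0.21 (SE) did not pass the threshold (adjusted p = 0.151). ATP5MC2 had 203, 247 and 220.0 FPKM in oeALKBH5 cells, against 202, 213 and 199.5 FPKM in NC cells, with a log2 fold change of 0.12 (95% interval -0.07 to 0.32). Summed, the 3 genes gave 425, 444 and 408 FPKM in oeALKBH5 cells, against 459, 495 and 481 FPKM in NC cells.

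The peripheral stalk, which holds the head still, had no called member. ATP5PD was lowest relative to NC, with 211, 215 and 207 FPKM in oeALKBH5 cells, against 247, 232 and 279 FPKM in NC cells, a log2 fold change of -0.25 ± 0.08 (SE, adjusted p = 0.111) and no overlap. ATP5PO, the link between stalk and head, averaged 129 ± 15.7 FPKM in oeALKBH5 cells and 128 ± 11.1 FPKM in NC cells (SD, n = 3 each). The inhibitor ATP5IF1, which blocks ATP hydrolysis by the enzyme, had 98.0, 85.0 and 134 FPKM in oeALKBH5 cells, against 97.6, 113 and 98.0 FPKM in NC cells, with overlapping groups and a 95% interval of the log2 fold change of -0.34 to 0.37. The other 6 membrane subunits overlapped between the groups. They included ATP5MK, the most abundant of all members, with 889, 904 and 776 FPKM in oeALKBH5 cells and 969.6, 1009 and 874 FPKM in NC cells. ATP5MF averaged 333 ± 75.3 FPKM in oeALKBH5 cells and 407 ± 98.2 FPKM in NC cells. The lowest tested member was ATP5MGL, a copy of ATP5MG, with 0, 1.49 and 0.701 FPKM in oeALKBH5 cells and 0.580, 0 and 0.585 FPKM in NC cells. Of the readthrough transcripts, ATP5MF-PTCD1 averaged 4.72 ± 1.78 FPKM in oeALKBH5 cells and 5.54 ± 1.83 FPKM in NC cells, and NDUFC2-KCTD14 did not exceed 0.000221 FPKM in any library.

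The partner genes of the same complexes encoded in mitochondrial DNA showed changes in both directions. Of 13, 4 fell (MT-ND1, MT-CYB, MT-CO2 and MT-CO3) and 1 rose (MT-CO1), with a median log2 fold change of -0.26. That is 38.5% called, against 5.45% of all tested genes and 13.3% of those at or above 38.0 FPKM. The 13 genes averaged 190 to 5876 FPKM, well above that cutoff, and the share of genes called at their own level was not computed. MT-CO1, the catalytic subunit of complex IV, had 4016, 3119 and 4709 FPKM in oeALKBH5 cells, against 2103, 1901 and 1962 FPKM in NC cells. Its groups were far apart, with a log2 fold change of 0.97 ± 0.12 (SE, adjusted p = 0.00426). MT-CO3 had 4833, 5458 and 5232 FPKM in oeALKBH5 cells, against 6728, 6339 and 6667 FPKM in NC cells, and MT-CO2 had 1311, 1165 and 1245 FPKM in oeALKBH5 cells, against 1653, 1511 and 1679 FPKM in NC cells. Their log2 fold changes were -0.35 ± 0.05 and -0.38 ± 0.06 (SE, adjusted p = 0.00613 and 0.0105), and that of MT-CO3 was 0 after quantile normalization, which sets the highest values of each library equal. MT-ND1 of complex I averaged 2115 ± 56.8 FPKM in oeALKBH5 cells and 2572 ± 156 FPKM in NC cells, and MT-CYB of complex III 3138 ± 123 FPKM in oeALKBH5 cells and 3746 ± 215 FPKM in NC cells (SD, n = 3 each; adjusted p = 0.0189 and 0.0257). MT-CO2 was not called without NC replicate 3 (adjusted p = 0.0604), MT-ND1 without oeALKBH5 replicate 2 or 3 or NC replicate 2 or 3 (up to 0.0901), and MT-CYB without oeALKBH5 replicate 1 or 3 or NC replicate 1 or 3 (up to 0.1). MT-ND3 reached 1139 FPKM in NC replicate 1 but no more than 0.738 FPKM in the other 5 libraries, and MT-ATP8, which overlaps MT-ATP6, was near 0 only in NC replicate 2, so the values of these short genes are uncertain.

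**Figure D5:**
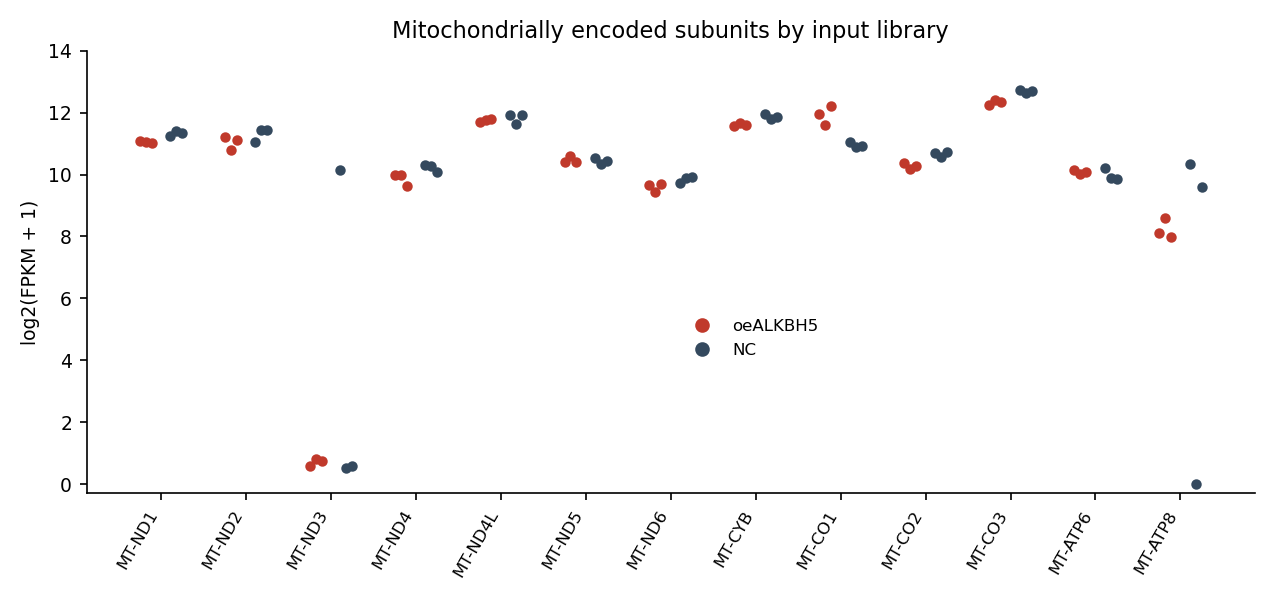
FPKM of the 13 mitochondrially encoded subunits in each input library on a log2(FPKM + 1) axis, 1 point per library, oeALKBH5 left of NC. MT-CO1 lies higher in oeALKBH5 libraries (3119 to 4709 FPKM) than in NC libraries (1901 to 2103 FPKM), and MT-ND3 leaves the floor only in NC replicate 1 (1139 FPKM).

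Among the genes that build and feed the chain, few were called. The share called was 5.45% over all tested genes and 13.3% over those at or above 38.0 FPKM. Of 48 tested assembly factors, which insert cofactors and join modules, none was called with limma and 5 had an unadjusted p under 0.05, with a median log2 fold change of -0.08. SCO2 was not analysed here. Of 8 electron carriers and entry points, 4 had a log2 fold change below 0 and 4 above, with a median of 0.01. Of these CYCS, which encodes cytochrome c, fell, with 196, 170.2 and 167 FPKM in oeALKBH5 cells, against 212, 254 and 239.7 FPKM in NC cells (log2 fold change -0.40 ± 0.09 SE, adjusted p = 0.0472). It was not called without oeALKBH5 replicate 2 or 3 or NC replicate 2 or 3 (up to 0.156). Of 17 genes of the tricarboxylic acid cycle, 14 (82.4%) had a log2 fold change below 0, with a median of -0.16. The share below 0 was 47.7% over all tested genes and 56.6% at or above 38.0 FPKM. Of the 17, 1 fell (5.88%). This was MDH2, the mitochondrial malate dehydrogenase, with 77.7, 76.6 and 85.6 FPKM in oeALKBH5 cells, against 110.0, 112 and 122 FPKM in NC cells (log2 fold change -0.51 ± 0.09 SE, adjusted p = 0.0152, or 0.0791 without NC replicate 3). Of 16 regulators of mitochondrial biogenesis, including PPARGC1A, NRF1, GABPA and TFAM, none was called with limma and 3 had an unadjusted p under 0.05, with 9 log2 fold changes above 0 and a median of 0.03. NRF1 averaged 8.28 ± 0.199 FPKM in oeALKBH5 cells and 12.1 ± 4.91 FPKM in NC cells (SD, n = 3 each), with overlapping groups.

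Of 11 tested mitochondrial genes linked to hypoxia-inducible factor (HIF), 2 rose and 1 fell, with a median log2 fold change of -0.02. That is 27.3% called, against 5.45% of all tested genes and 13.3% of those at or above 38.0 FPKM. The list was chosen with earlier results of these data known, so its share is not independent of them and was not tested. It also holds genes below 38.0 FPKM, down to NDUFA4L2 at a mean of 1.82 FPKM. PDK1, the kinase that shuts pyruvate out of the cycle, had 44.2, 42.7 and 44.7 FPKM in oeALKBH5 cells, against 25.0, 19.0 and 20.9 FPKM in NC cells (log2 fold change 0.99 ± 0.13 SE, adjusted p = 0.0054). BNIP3L, a receptor for the removal of mitochondria by autophagy, had 104, 111 and 122 FPKM in oeALKBH5 cells, against 58.5, 58.2 and 61.8 FPKM in NC cells (log2 fold change 0.90 ± 0.10 SE, adjusted p = 0.00167). CHCHD2, a mitochondrial protein that also activates transcription of COX4I2, fell, with 241, 249 and 252 FPKM in oeALKBH5 cells, against 319.6, 321 and 317 FPKM in NC cells (log2 fold change -0.37 ± 0.06 SE, adjusted p = 0.0106, or 0.0544 without NC replicate 3). In the same libraries COX4I2 was listed at 0 throughout, and NDUFA4L2 did not exceed 2.64 FPKM. HIF1A averaged 69.9 ± 10.1 FPKM in oeALKBH5 cells and 70.8 ± 4.94 FPKM in NC cells (SD, n = 3 each).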

How the data were processed

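Input and m6A-pulldown RNA of C4-2 cells was sequenced as 150 base paired ends, per the labels' protocols. Gene values are the FPKM that the authors deposited. Their unit is not named in the table and follows from the values and from the tools in the submitters' processing notes (cutadapt 1.9.3, HISAT2 2.0.4, Cuffdiff and Cufflinks, build hg19). Their options are not given in the sources used here. The m6A peak lists hold no gene names and were not used here.

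Groups are the genotypes that the labels give. Symbols were matched to Ensembl IDs, and RefSeq (GRCh38.p14) gave the gene type. The 12757 genes whose 6 input libraries averaged 0.5 FPKM or more were fitted as log2(FPKM + 1) by limma 3.58.1 (intensity trend, R 4.3.3). The Benjamini-Hochberg adjustment ran over all of these genes, at a threshold of 0.05. This scale understates the change of low genes. Sums, medians, motif counts and figures were made in Python 3.11.15 with pandas 2.3.3, numpy 2.4.6 and matplotlib 3.10.9. In simulated data of the oeALKBH5 against NC comparison with 12757 genes, a log2 change of 1 was recovered in 86% of 100 genes. A log2 change of 2 was recovered in 100% of another 100, with 6 false calls. The simulated spread followed a smooth curve of level, with no further difference between genes. That setting favours a fit with an intensity trend, so these figures may be too favourable for the real libraries. Recovery of log2 changes smaller than 1, which include those of all called members, was not tested.

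Members and lists were chosen with earlier results of these data known. Named were called members, the extremes of each complex and structural part, core subunits, isoform sets, the inhibitor, members at or near 0, and called genes of the other lists. Some genes under this rule are not reported here. Other genes that are named were chosen after their values were seen. Alternatives covered the filter, the pseudocount, scaling, the trend, failed estimates, the replicate number as a block and each library left out.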

Additional observations from a re-analysis of the deposited data

How the results depend on the processing

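All genes called numbered 695, and 421 with no filter on low values, 270 without the intensity trend, 344 with the replicate block and 232 to 436 with 1 library left out. Members called numbered 8 (7 lower, 1 higher), against 5 (4 lower) with no filter, 5 (4 lower) after quantile normalization, 0 (0 lower, 0 higher) without the trend, where 11 had an unadjusted p under 0.05, 2 (2 lower, 0 higher) with the replicate block and 1 to 4 (1 to 3 lower, 0 to 1 higher) with 1 library left out. Same-numbered libraries did not deviate together (correlations of -0.017, -0.021 and 0.032). No shared effect of the number was seen, but this cannot show whether the replicates were prepared in pairs. NDUFB2 was called in 13 of 14 alternatives, all but the fit without the trend (adjusted p = 0.0675). Upper-quartile scaling left 7 called members, and a pseudocount of 0.1, a filter at 1 FPKM and failed estimates set missing left 8. The median log2 fold change of members was -0.064 after quantile normalization and -0.14 to -0.088 with 1 library left out, that of complex III 0.0019 and that of complex V -0.087 after quantile normalization. With 1 library left out, the medians were -0.18 to -0.0998 in complex I, -0.10 to 0.025 in complex II, -0.099 to -0.035 in complex III, -0.12 to -0.016 in complex IV and -0.18 to -0.097 in complex V. Among uncalled genes, signs changed after quantile normalization for COX5B (0.031), NDUFS1 (0.027), NDUFV2 (0.047), UQCRC2 (0.044), UQCRH (0.078) and HIF1A (0.0093), for NDUFS1 (0.0084) after upper-quartile scaling and for MT-ATP8 (-1.74) with failed estimates set missing. With 1 library left out, log2 fold changes crossed 0 in 24 of 83 tested members, 0 of them called. Those described above were ATP5F1D (-0.094 to 0.16), ATP5F1E (-0.037 to 0.13), ATP5IF1 (-0.17 to 0.16), ATP5PO (-0.067 to 0.11), COX5B (-0.082 to 0.059), COX6A1 (-0.091 to 0.077), COX7A2L (-0.11 to 0.21), COX7C (-0.019 to 0.058), NDUFA4 (-0.16 to 0.033), NDUFA4L2 (-0.60 to 0.33), NDUFS1 (-0.081 to 0.071), SDHA (-0.19 to 0.059), SDHB (-0.16 to 0.035), UQCRC1 (-0.27 to 0.0020), UQCRC2 (-0.11 to 0.056) and UQCRFS1 (-0.090 to 0.019), and of other genes HIF1A (-0.14 to 0.039), MT-ATP8 (-1.74 to 3.44) and MT-ND3 (-4.65 to 0.16). The causes were not tested. The comparison with genes at or above 38.0 FPKM was added after seeing the data. Absolute depth is unknown, and with 3 libraries a group, changes smaller than those called here may go unseen.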
